A study of Homo sapiens with 2 samples.

Results

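The peaks described here are the binding regions of the retinoblastoma protein Rb on chromosomes 4 and 18 of VCaP and LNCaP cells. Every peak that the authors listed on these chromosomes was taken, without a further filter. This gave 533 of the 9423 VCaP peaks (391 on chromosome 4 and 142 on chromosome 18) and 1309 of the 21994 LNCaP peaks (865 and 444). Rb was mapped by chromatin immunoprecipitation followed by sequencing (ChIP-seq), with a mouse monoclonal antibody against Rb and 1 library per line. Both lines were held in 5% charcoal-treated serum, which is poor in steroid hormones, for 3 days, and were then treated for 4 h with dihydrotestosterone (DHT), an androgen, at 10 nM, at passage 10 to 15. VCaP and LNCaP are established lines from metastatic prostate cancer that express the androgen receptor, and both are aneuploid. The VCaP library had 8691938 tags after filtering and the LNCaP library 3671482. With 1 library per line, the values below compare these libraries, and the spread between cultures of a line is not known.

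Rb restrains entry into S phase by binding E2F transcription factors at the promoters of cell cycle and DNA replication genes, and in growing cells kinases release it by phosphorylation. Such promoters lie mostly in CpG islands, short stretches rich in C and G near gene starts. Gene-poor chromosomes hold fewer of these starts per unit of length, separated by long gene deserts. Chromosome 18 in particular is known for its place near the edge of the nucleus in many cell types.

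The description of these chromosomes as gene-poor held in a gene table. Chromosome 4 had 770 protein-coding genes and chromosome 18 had 270 in the RefSeq table of the assembly GRCh38.p14, or 4.05 and 3.36 per Mb up to the last gene. These were the third lowest and the second lowest density of the 22 autosomes. The lowest was that of chromosome 13, with 2.96 per Mb, and the highest that of chromosome 19, with 24.8. The peaks have positions on the earlier build hg19, so the table served for counts per chromosome and not for assigning peaks to genes.

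Rb peaks were sparse on both chromosomes in both lines. Chromosome 4 carried 2.05 peaks per Mb in VCaP and 4.53 in LNCaP, and chromosome 18 carried 1.82 and 5.69. The other 20 autosomes together had 3.35 per Mb in VCaP and 7.73 in LNCaP. Relative to them, the density was 0.611 in VCaP and 0.585 in LNCaP on chromosome 4, and 0.544 and 0.736 on chromosome 18. In VCaP, chromosome 18 had the lowest density of all 22 autosomes and chromosome 4 the fourth lowest, with chromosomes 13 (1.87) and 16 (2.04) between them. In LNCaP, chromosome 4 had the second lowest density, after chromosome 13 with 3.28, and chromosome 18 the fourth lowest. Density was taken over the span from the chromosome start to the last peak of either list, 191.0 Mb and 78.0 Mb, which includes stretches without assembled sequence.

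Counted per gene, the same chromosomes were not sparse. Chromosome 4 had 50.8 peaks per 100 protein-coding genes in VCaP and 112.3 in LNCaP, against 48.3 and 111.6 over the other autosomes. Chromosome 18 had 52.6 in VCaP and 164.4 in LNCaP. The LNCaP value for chromosome 18 was the highest of the 22 autosomes, the next being 140.2 on chromosome 10, and the VCaP value ranked 15th from the lowest. Whether the peaks lie at gene starts was not tested.

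**Figure D1:**
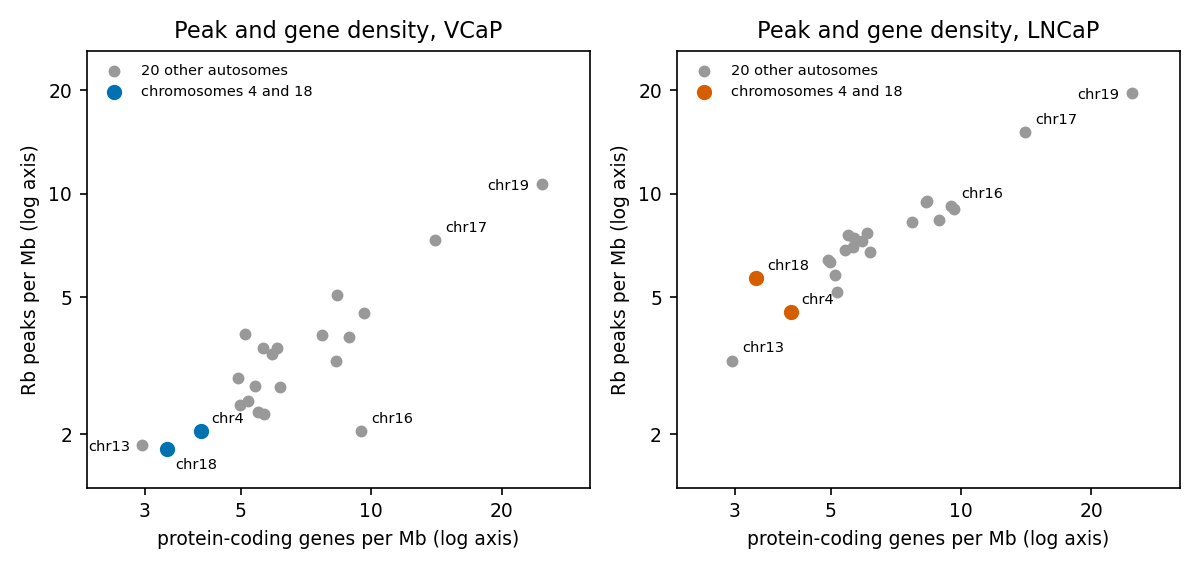
Rb peaks per Mb (vertical log axis) against protein-coding genes per Mb (horizontal log axis) for each of the 22 autosomes, in VCaP (left) and LNCaP (right). Each point is 1 chromosome; chromosomes 4 and 18 (coloured) sit at the lower left, and in LNCaP chromosome 18, with 5.69 peaks per Mb, lies above chromosome 4, with 4.53, in spite of its lower gene density.

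The lines differed more on chromosome 18 than on chromosome 4. LNCaP had 2.21 times as many peaks as VCaP on chromosome 4 and 3.13 times as many on chromosome 18, against 2.31 times over the other autosomes. Among the 22 autosomes the ratio of chromosome 18 was the fourth highest, after chromosomes 16 (4.50), 10 (3.27) and 14 (3.24). As a share of all autosomal peaks, chromosome 18 held 1.53% in VCaP (exact 95% binomial interval 1.29 to 1.80) and 2.07% in LNCaP (1.88 to 2.26). For chromosome 4 the shares were 4.22% (3.82 to 4.65) and 4.02% (3.77 to 4.30). These intervals cover counting error only. DNA copy number was not measured, so its part in the ratios cannot be told apart from that of Rb binding.

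Along each chromosome the peaks were unevenly spread. Chromosome 4 had dense stretches near its start and from 75 to 80 Mb, with sparse stretches between and beyond them. In bins of 5 Mb, chromosome 4 had a median of 8 peaks in VCaP (quartiles 5.5 and 12) and 21 in LNCaP (11.5 and 27.5). Chromosome 18 had a median of 8 in VCaP (6 and 10.5) and 27 in LNCaP (17.75 and 36.5). The 533 bins of the other autosomes had medians of 12 (7 and 20) and 33 (19 and 49). Of the 55 bins on both chromosomes together, 83.6% in VCaP and 89.1% in LNCaP lay below the mean density of the other autosomes. Of the bins of those autosomes, 66.0% and 60.8% lay below their own mean.

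The fullest bin of chromosome 4 in both lists was the first, from 0 to 5 Mb, with 30 VCaP and 76 LNCaP peaks. Next in both lists came the bin from 75 to 80 Mb, with 27 and 46. On chromosome 18 the fullest bin of both lists ran from 10 to 15 Mb, with 20 VCaP and 49 LNCaP peaks. The bins of chromosome 4 with the fewest LNCaP peaks were those from 30 to 35 Mb and from 60 to 65 Mb, with 3 each and 0 and 2 VCaP peaks. The bins with the fewest VCaP peaks were that from 30 to 35 Mb and those from 130 to 135 and 135 to 140 Mb, with 0 and 1 VCaP and 8 and 4 LNCaP peaks in the last 2. On chromosome 18 the bin from 65 to 70 Mb had 1 VCaP and 16 LNCaP peaks.

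The spread between bins was set beside that of the bins pooled over the other autosomes. The variance of the bin counts over their mean was 4.91 in VCaP and 8.59 in LNCaP on chromosome 4, and 2.73 and 5.20 on chromosome 18, against 15.5 and 19.5 over the other autosomes. This ratio grows with the mean count, which was lower here, and the other bins come from 20 chromosomes, so no difference is read from it. The densest 10 of the 39 bins of chromosome 4 held 50.6% of its VCaP and 45.7% of its LNCaP peaks. The densest 4 of the 16 bins of chromosome 18 held 44.4% and 39.0%, and the densest 133 of the 533 other bins 57.2% and 49.6%. Spearman's rho between the VCaP and LNCaP counts was 0.81 over the 39 bins of chromosome 4, 0.72 over the 16 bins of chromosome 18 and 0.81 over the 533 other bins. The bins share the genome's mappable sequence, and no p-value is attached.

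**Figure D2:**
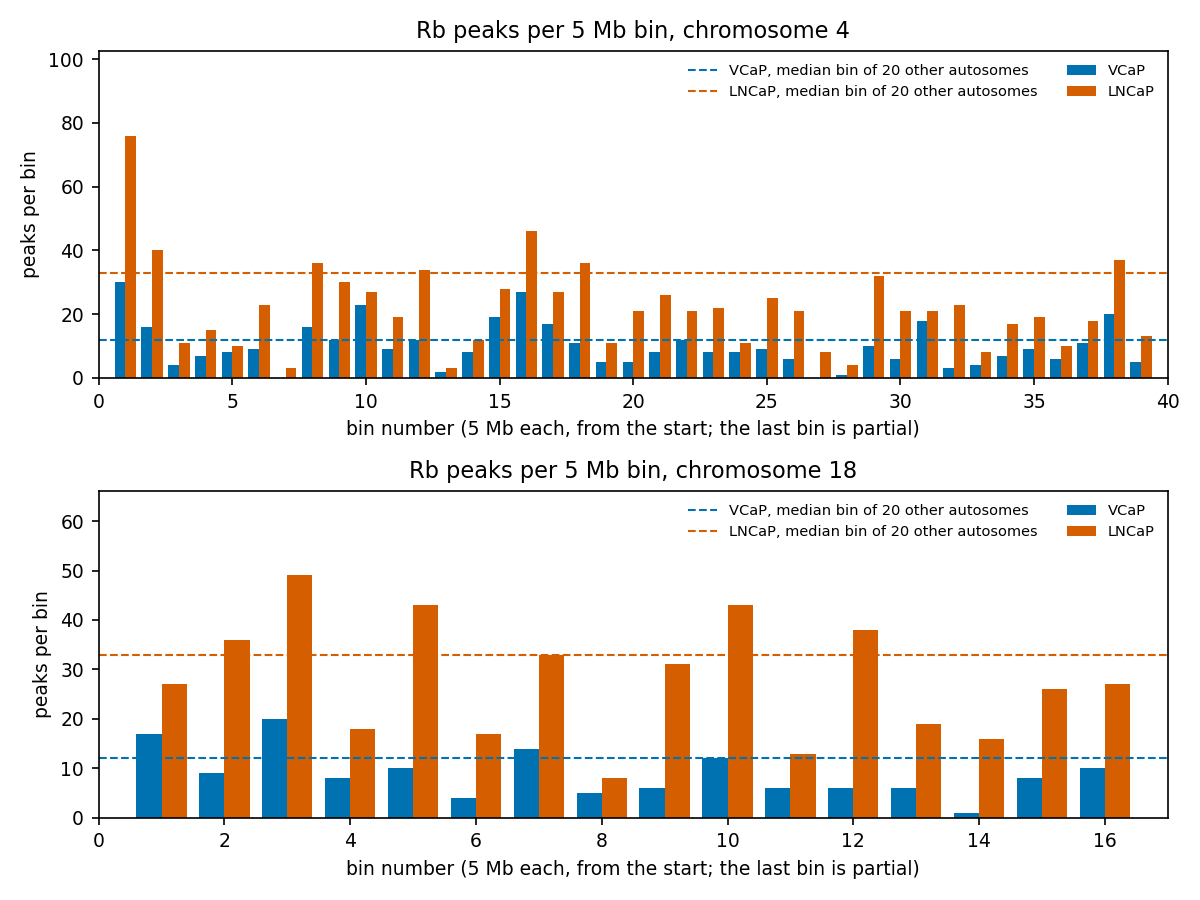
Rb peaks per 5 Mb bin (vertical axis) by bin number from the chromosome start (horizontal axis), for chromosome 4 (top) and chromosome 18 (bottom), with VCaP in blue and LNCaP in orange. Dashed lines mark the median bin of the 20 other autosomes, 12 peaks in VCaP and 33 in LNCaP; LNCaP has the higher bar in all 39 and all 16 bins.

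LNCaP had more peaks than VCaP in all 39 bins of chromosome 4 and all 16 of chromosome 18, and in 495 of the 511 bins with a peak elsewhere. The median ratio of the bins was 2.25 on chromosome 4 and 3.21 on chromosome 18, against 2.44. The ratio of LNCaP to VCaP peaks still varied along chromosome 4, from 1.17 (21 against 18 peaks, from 150 to 155 Mb, and 27 against 23, from 45 to 50 Mb) to 7.67 (23 against 3, from 155 to 160 Mb). On chromosome 18 it ranged from 1.59 (27 against 17, from 0 to 5 Mb) to 16 (16 against 1, from 65 to 70 Mb).

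Neighbouring Rb peaks lay farther apart than elsewhere. This measure depends on the number of peaks per Mb, which was lower here. The median distance between neighbouring summits was 174.1 kb in VCaP and 86.4 kb in LNCaP on chromosome 4, and 228.4 kb and 73.3 kb on chromosome 18. Over the other autosomes it was 97.3 kb in VCaP and 49.9 kb in LNCaP. The chromosome 18 distance in VCaP was the longest of the 22 autosomes and the chromosome 4 distance the next longest. In LNCaP chromosome 13 had the longest, 88.3 kb, and chromosome 4 came next.

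Fewer peaks had another within 20 kb, and on both chromosomes together peaks far from any other were more frequent. Both shares also depend on the number of peaks per Mb, so clustering beyond the lower density was not tested. In VCaP, 77 of the 391 peaks on chromosome 4 (19.7%, exact interval 15.9 to 24.0) and 22 of 142 on chromosome 18 (15.5%, 9.97 to 22.5) had another summit within 20 kb, against a background of 26.9% on the other autosomes. In LNCaP the counts were 325 of 865 (37.6%, 34.3 to 40.9) and 148 of 444 (33.3%, 28.96 to 37.9), against 44.9%. The VCaP share on chromosome 18 was the lowest of the 22 autosomes. On single other autosomes the VCaP share ranged from 18.4% (chromosome 2) to 42.2% (chromosome 19), and gene-poor chromosome 13 had 27.4%. The LNCaP share ranged from 32.9% (chromosome 13) to 56.4% (chromosome 17). Chromosome 5, with 35.3% in LNCaP, also lay below chromosome 4. The difference depended on the limit: within 10 kb the share in VCaP was 13.9% on both chromosomes together (11.1 to 17.1), an interval that includes the 15.2% elsewhere. In LNCaP it was 27.7% on chromosome 4 (24.8 to 30.9) and 21.6% on chromosome 18 (17.9 to 25.7), against 28.9%, so that the chromosome 18 interval alone lies below. Peaks without another summit of their list within 1 Mb numbered 7 on chromosome 4 (1.79%, 0.723 to 3.65) and 6 on chromosome 18 (4.23%, 1.57 to 8.97) in VCaP. Together these were 13 of 533 or 2.44% (1.30 to 4.13), against 1.12% on the other autosomes. LNCaP had 6 (0.694%, 0.255 to 1.50) and 1 (0.225%, 0.00570 to 1.25), or together 0.535% (0.215 to 1.10) against 0.178%. The intervals of chromosome 4 in VCaP and of chromosome 18 in LNCaP include the value elsewhere. Single other autosomes reached 2.75% in VCaP (chromosome 3) and 1.06% in LNCaP (chromosome 13).

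**Figure D3:**
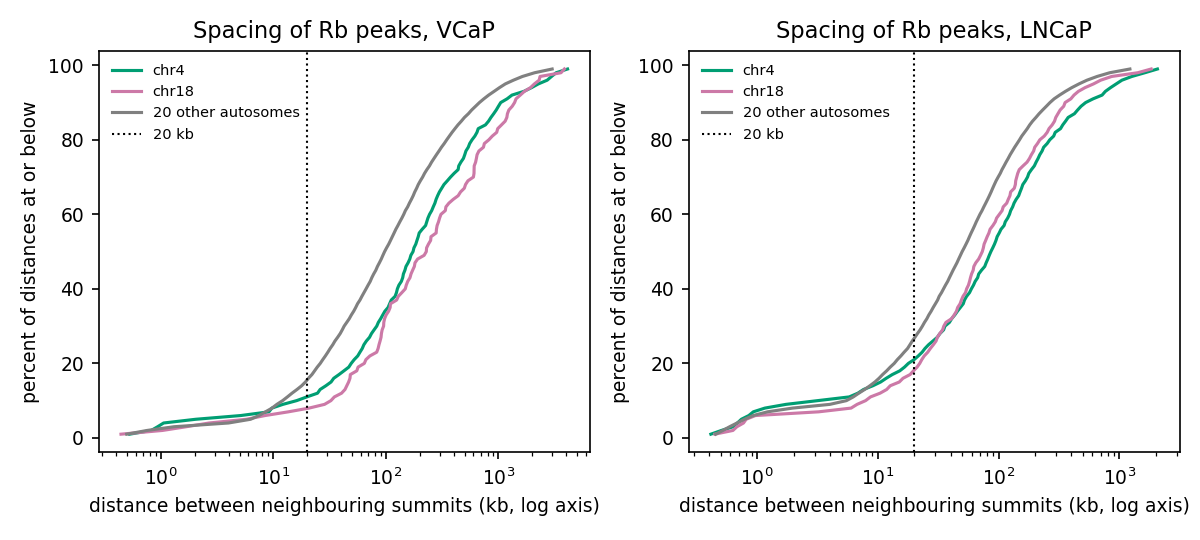
Cumulative percentage of distances between neighbouring summits (vertical axis) against distance in kb (horizontal log axis), for VCaP (left) and LNCaP (right), with a dotted line at 20 kb. The curves of chromosome 4 (green) and chromosome 18 (pink) lie to the right of the 20 other autosomes (grey) over most of their range, with medians of 174.1 and 228.4 kb against 97.3 kb in VCaP.

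The widest stretches without a VCaP peak were 10.2 Mb (between summits at 129731189 and 139937043) and 9.38 Mb (26862261 to 36245953) on chromosome 4. On chromosome 18 they were 6.52 Mb (61348718 to 67873301) and 3.99 Mb (39694485 to 43684407). LNCaP peaks filled part of these. The widest LNCaP distances were 4.70 Mb (178363445 to 183066106) and 3.51 Mb (31983041 to 35495860) on chromosome 4, and 3.52 Mb (25090215 to 28614058) and 3.32 Mb (15197985 to 18517502) on chromosome 18. Intervals of at least 2.5 Mb with no peak of either list numbered 4 on chromosome 4 and 2 on chromosome 18. Whether these intervals hold assembled sequence, where alone a peak can be called, was not checked. They are therefore not read as an absence of Rb.

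Tight groups of peaks were few, a count that also depends on the number of peaks per Mb. Runs of at least 3 peaks, each within 20 kb of the next, took up 4.35% of VCaP and 12.1% of LNCaP peaks on chromosome 4, and 2.82% and 7.21% on chromosome 18. On the other autosomes they took up 9.63% and 18.7%. LNCaP had 32 runs on chromosome 4 and 10 on chromosome 18, and VCaP 3 and 1.

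The longest runs lay within 1 Mb of intervals of at least 2.5 Mb without a peak of either list. In VCaP, 11 peaks stood within 62.7 kb at chr4:49093955-49156699, with pileups of 18 to 56 tags and 1 of the 11 overlapped by an LNCaP peak. Pileup is the number of extended tags that cover a peak's summit, not scaled to the library. In LNCaP, 8 peaks stood within 51.0 kb at chr4:49272588-49323621, with pileups of 9 to 41, and 1 was overlapped by a VCaP peak. Both runs lie within 1 Mb of the peak-free interval chr4:49659825-52708747. On chromosome 18, the VCaP run of 4 peaks at chr18:18512861-18520271 borders the peak-free interval chr18:15198333-18512860. It had pileups of 94 to 158 tags, fold enrichments of 2.36 to 4.45 and up to 1786 tags in the surrounding 10 kb window. Fold enrichment is the authors' ratio of the summit pileup to the background of the same library. The longest LNCaP run of chromosome 18, at chr18:14431277-14479438, held 5 peaks with pileups of 7 to 32, of which 1 was overlapped. The VCaP run of 3 peaks at chr4:68264602-68266772 had pileups of 41 to 91 and up to 417 tags in the window.

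Median summit height was within 2 tags of that elsewhere, and in LNCaP peaks of 1000 bp or more were more frequent on both chromosomes together. The median pileup in VCaP was 13 tags on chromosome 4 (quartiles 11 and 17) and 12 on chromosome 18 (9 and 15), against 13 on the other autosomes (11 and 17). In LNCaP it was 12 (7 and 18) and 11 (7 and 19), against 13 (8 and 19). Per 1000000 tags of the library, the medians were 1.50 and 1.38 in VCaP and 3.27 and 3.00 in LNCaP. Median peak length was 310 bp on chromosome 4 and 308.5 bp on chromosome 18 in VCaP, against 314 bp. In LNCaP it was 406 bp (exact interval of the median 383 to 431) and 354.5 bp (322 to 393), against 396 bp (392 to 401). Peaks of 1000 bp or more made up 34 of 865 LNCaP peaks on chromosome 4 (3.93%, 2.74 to 5.45) and 17 of 444 on chromosome 18 (3.83%, 2.25 to 6.06), against 2.29% on the other autosomes, which the interval of chromosome 18 includes. Together these were 3.90% (2.91 to 5.09). Single other autosomes reached 3.32% (chromosome 3, 2.43 to 4.42) and 3.27% (chromosome 1, 2.59 to 4.07) in LNCaP. In VCaP there were 3 of 142 on chromosome 18 (2.11%, 0.438 to 6.05), against 0.206%, and 0 of 391 on chromosome 4, with an upper exact bound of 0.939%. The 3 include chr18:107870-109451, with 1293 tags in its 10 kb window. They also include chr18:18518729-18520271, in the run with up to 1786 tags in the window.

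Strongly enriched peaks were rarer in VCaP than on the other autosomes pooled, and about as frequent as elsewhere in LNCaP. A fold enrichment of at least 10 was reached by 7 of 391 VCaP peaks on chromosome 4 (1.79%, 0.723 to 3.65) and 1 of 142 on chromosome 18 (0.704%, 0.0178 to 3.86), against a background of 3.41% on the other autosomes. Each of these intervals includes the background, while that of both chromosomes together, 8 of 533 or 1.50% (0.650 to 2.94), lies below it. In LNCaP it was reached by 85 of 865 (9.83%, 7.92 to 12.01) and 37 of 444 (8.33%, 5.94 to 11.3), against 7.97%. Chromosome 18 had the lowest such share of the 22 autosomes in VCaP, and chromosome 4 the second highest in LNCaP. On single other autosomes the VCaP share ranged from 0.930% (gene-poor chromosome 13) to 7.65% (chromosome 22). Chromosome 5, with 1.59% in VCaP, also lay below chromosome 4, so a low share was not particular to these chromosomes. The median fold was 5.24 in VCaP and 6.10 in LNCaP on chromosome 4, 5.53 and 5.99 on chromosome 18, and 5.52 and 5.98 elsewhere. At a fold of at least 10, the density relative to the other autosomes was 0.260 in VCaP (8 peaks) and 0.735 in LNCaP (122 peaks).

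The LNCaP peak of highest fold on chromosome 4, chr4:122722310-122722773, had 64 tags at the summit and a fold of 21.7, and ranked 6th of the autosomal LNCaP list. Its VCaP partner had 37 tags and a fold of 12.6, and their summits were 17 bp apart. It was followed by chr4:73935120-73935791, with a fold of 18.1 and 49 tags in LNCaP against 7.91 and 40 tags in VCaP. Per 1000000 tags of the library, its summit had 13.3 tags in LNCaP and 4.60 in VCaP, and its 10 kb window 19.9 and 21.4. The peak at chr4:17812221-17812843 had folds of 16.1 in LNCaP and 9.91 in VCaP, and chr4:39367596-39368231 had 15.8 and 9.38. The fifth, chr4:170678704-170679290, had 42 tags and a fold of 15.4 in LNCaP and 41 tags and 12.9 in VCaP, or 11.4 and 4.72 tags per 1000000. All 5 of these LNCaP peaks were overlapped in VCaP, and their summits differed by 13 to 88 bp.

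The VCaP peaks of highest fold on chromosome 4 were a mixed set. The first 2, chr4:49659443-49659824 (fold 17.1, 47 tags) and chr4:49139064-49139426 (13.2, 50 tags), had no LNCaP partner, and the nearest LNCaP summits were 138.1 and 12.4 kb away. Both lie within 1 Mb of the peak-free interval that begins at 49659825, and the first of them bounds it. The other 3 were shared: the sites at 170678715 and 122722354, given above, and chr4:185654382-185654762, with 47 tags and a fold of 11.5 in VCaP and 41 tags and 12.7 in LNCaP. The third highest unshared VCaP peak, chr4:54796177-54796509, had 20 tags and a fold of 9.88.

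On chromosome 18 the highest folds were lower, among fewer peaks, and the leading sites were shared as often as on chromosome 4. In LNCaP the highest fold was 16.5, with 44 tags, at chr18:47901048-47901651, where VCaP had 11 tags and a fold of 4.79. The VCaP partner ranked 7074th by fold of the autosomal list. At chr18:67872937-67873498 the folds were 15.3 in LNCaP and 9.88 in VCaP, with 35 and 28 tags. This VCaP peak is the only one of its list in the bin from 65 to 70 Mb, and its nearest VCaP neighbour lies 2338 kb away. At chr18:19192086-19192669, the fold was 14.5 in LNCaP (55 tags) and 13.2 in VCaP (34 tags), the highest VCaP fold of the chromosome. The sites at chr18:57026307-57026958 and chr18:33077601-33078110 had folds of 14.6 and 14.3 in LNCaP and 7.69 and 6.38 in VCaP. A further VCaP site among the highest by fold, chr18:37379815-37380321, had 8.56 in VCaP and 12.1 in LNCaP.

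The VCaP list of chromosome 18 also had unshared peaks among its 5 highest by fold, chr18:32847256-32847521 (fold 9.83, 19 tags) and chr18:50319009-50319363 (8.82, 14 tags). The window of the second held so few tags that the genome mean, 31.2 tags per 10 kb, served as its background. The third unshared VCaP peak by fold, chr18:44526818-44527087, had 12 tags and a fold of 6.68. The highest unshared LNCaP peaks of chromosome 18 were chr18:56975754-56976183 (fold 12.8), chr18:44702487-44702869 (12.7) and chr18:53331931-53332481 (11.9), with 27 or 28 tags each. On chromosome 4 they were chr4:88928502-88929270 (12.02), chr4:99579548-99580174 (12.01) and chr4:166128410-166129121 (11.9), with 31, 33 and 31 tags.

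The highest pileup and the highest fold fell on different sites. In VCaP the highest pileup of chromosome 18 was 201 tags at chr18:107870-109451, which was also its longest peak with 1582 bp. Its fold was 6.71, since 1293 tags lay in the 10 kb window, and its LNCaP partner had 19 tags and a fold of 4.93. The highest VCaP pileup of chromosome 4 was 91 tags at chr4:68265400-68266192, with a fold of 8.92 and 414 tags in the window, against 13 tags and a fold of 7.40 in LNCaP. In LNCaP the highest pileups were 91 tags at chr4:1713795-1714792 (fold 12.6) and 60 tags at chr18:5296056-5296504 (fold 13.6). Their VCaP partners had 47 tags (11.0) and 19 tags (6.24). The longest LNCaP peaks were chr4:83294246-83295820, with 1575 bp, and chr18:45456545-45457994, with 1450 bp and no VCaP partner. The longest VCaP peak of chromosome 4, chr4:37687717-37688614, had 898 bp.

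Most VCaP peaks of these chromosomes were shared with LNCaP, though the share on chromosome 4 was below that of the rest. At least 1 bp was shared by 255 of 391 VCaP peaks on chromosome 4 (65.2%, 60.3 to 69.9) and 100 of 142 on chromosome 18 (70.4%, 62.2 to 77.8), against a background of 71.4% on the other autosomes. The interval of chromosome 18 includes that background. Of the LNCaP peaks, 248 of 865 on chromosome 4 (28.7%, 25.7 to 31.8) and 97 of 444 on chromosome 18 (21.8%, 18.1 to 25.98) were overlapped, against 30.7%. The LNCaP share of chromosome 18 was the second lowest of the 22 autosomes, after chromosome 16. The VCaP share was lower on chromosomes 13 (52.6%), 21 (55.3%) and 8 (58.5%) than on chromosome 4. With lists of equal length, the direction turned for VCaP, though narrowly: 56.5% of its peaks on both chromosomes were overlapped (52.1 to 60.7), against 52.0% elsewhere. On chromosome 4 alone the VCaP share was then 54.7% (49.6 to 59.7), an interval that includes the value elsewhere. For LNCaP the equal lists gave 47.9% (43.8 to 51.9), an interval that includes the 51.5% elsewhere.

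Sharing went with pileup in LNCaP, and in VCaP this order broke at the highest pileups. Of LNCaP peaks with under 10 tags, 9 of 326 on chromosome 4 (2.76%) and 3 of 193 on chromosome 18 (1.55%) were overlapped, against 5.23% elsewhere. With 15 to 19 tags the shares were 45.2% on chromosome 4 (37.6 to 53.1) and 23.9% on chromosome 18 (14.3 to 35.9), against 36.7% (35.2 to 38.3). With 30 tags or more they were 81.0% (47 of 58) and 78.8% (26 of 33), against 85.2%. In VCaP, peaks with 15 to 19 tags were overlapped in 81.2% on chromosome 4 and 92.3% on chromosome 18, against 84.8%. With 30 tags or more the VCaP shares were 14 of 25 on chromosome 4 (56.0%, 34.9 to 75.6) and 4 of 7 on chromosome 18 (57.1%, 18.4 to 90.1), against 81.8% (78.2 to 85.1).

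These high VCaP peaks without a partner stood in groups. The intervals above treat peaks as independent and are too narrow for such groups. The lower shares thus rest on a limited set of places and are not read as holding along the chromosomes. On chromosome 4, 9 of the 11 lay within 1 Mb of a peak-free interval, against 28 of all 391 VCaP peaks there (7.16%). All 14 had another VCaP summit within 20 kb, and 11 of the 14 lay within 1 Mb of a peak-free interval. On the other autosomes 73 of 92 such peaks had a summit within 20 kb, and 59 lay near an interval of that kind. Of all VCaP peaks, 18.6% on chromosomes 4 and 18 together and 26.9% elsewhere had a summit within 20 kb. The shares near such an interval were 7.69% and 3.33%. Without a control library, Rb binding at these sites cannot be told apart from background signal.

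**Figure D4:**
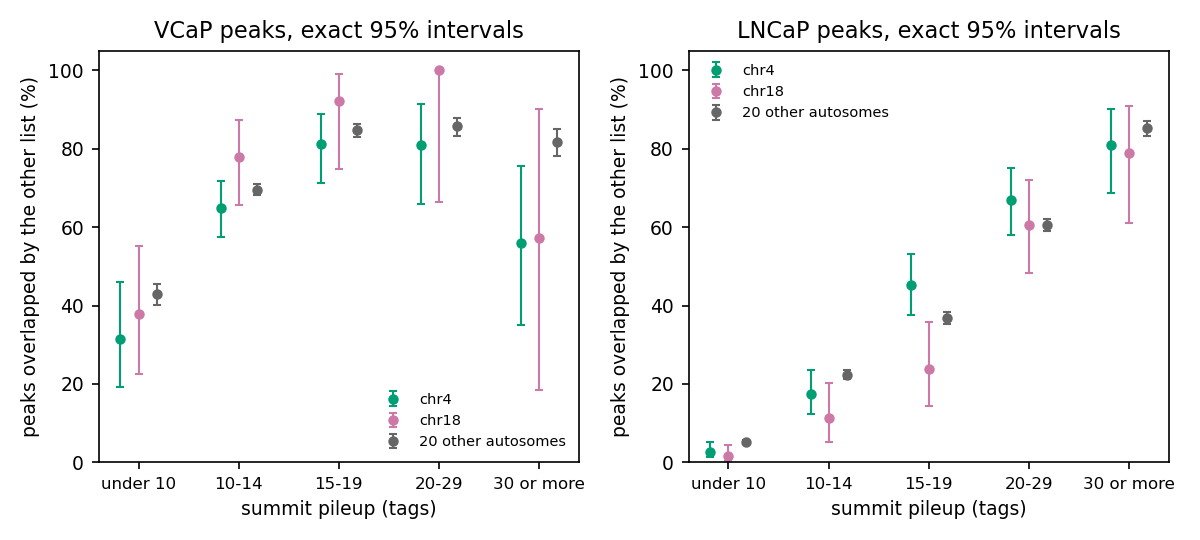
Percentage of VCaP peaks (left) and LNCaP peaks (right) overlapped by a peak of the other list (vertical axis) by class of summit pileup in tags (horizontal axis), with exact 95% binomial intervals as bars. The intervals treat peaks as independent, neighbouring ones included. Shares on chromosome 4 (green), chromosome 18 (pink) and the 20 other autosomes (grey) rise with pileup in LNCaP, while in VCaP those of chromosomes 4 and 18 are 56.0% and 57.1% in the class of 30 tags or more, against 81.8% in grey.

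Shared sites were higher and broader than unshared ones, most of all in LNCaP. Shared LNCaP peaks had a median of 20 tags and 637.5 bp on chromosome 4 and 25 tags and 700 bp on chromosome 18, against 9 tags with 326 bp and 9 tags with 291 bp for unshared peaks. On the other autosomes the shared LNCaP peaks had 21 tags and 576 bp. The median fold of shared LNCaP peaks was 8.26 on chromosome 4 and 8.38 on chromosome 18, against 7.65 elsewhere. For shared VCaP peaks it was 5.36 and 5.72, against 5.72 elsewhere.

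At shared sites the fold enrichment was higher in LNCaP almost throughout. Each VCaP peak with a partner makes 1 pair, and the 255 pairs of chromosome 4 involve 247 LNCaP peaks and the 100 of chromosome 18 involve 97. It was the higher in 234 of 255 pairs on chromosome 4 (91.8%, 87.7 to 94.8) and 96 of 100 on chromosome 18 (96.0%, 90.1 to 98.9), against 80.1% on the other autosomes (79.1 to 81.1). The median ratio of LNCaP to VCaP fold was 1.50 on chromosome 4 (exact interval of the median 1.45 to 1.56) and 1.45 on chromosome 18 (1.38 to 1.55), against 1.31 (1.30 to 1.32). Chromosome 13 was alike, with 88.5% of its 113 pairs and a median ratio of 1.48. Summits of a pair were a median of 90 bp apart on chromosome 4 and 67 bp on chromosome 18, against 73 bp. Spearman's rho of fold between the lines was 0.32 over the pairs of chromosome 4 and 0.42 over those of chromosome 18, against 0.36. The pairs share libraries and depth, and rho is a description.

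**Figure D5:**
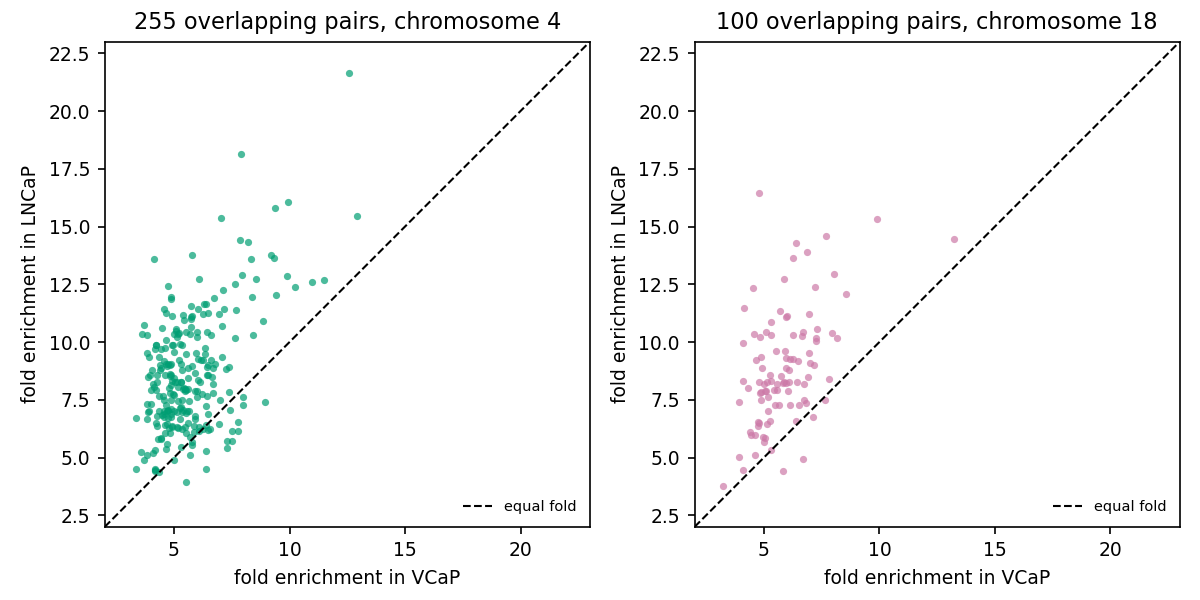
Fold enrichment in LNCaP (vertical axis) against fold enrichment in VCaP (horizontal axis) at the 255 overlapping pairs of chromosome 4 (left) and the 100 of chromosome 18 (right), each point 1 pair, with a dashed line of equal fold. Most points lie above the line, 234 of 255 and 96 of 100.

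The local tag numbers behind these folds differed between the chromosomes. The background can be computed back from pileup and fold as tags in the 10 kb window around a peak, the peak's own tags included. Scaled to each library's total, the median log2 ratio of VCaP over LNCaP window tags at overlapping pairs was -0.91 on chromosome 4 (interval of the median -1.03 to -0.81) and -1.37 on chromosome 18 (-1.58 to -1.20). On the other autosomes it was -1.24 (-1.27 to -1.23). Chromosome 4 thus had relatively more VCaP tags in its windows than the rest, and chromosome 18 did not, while the ratio of folds was of similar size on both. Chromosome 13 had a ratio of -0.90 (-0.999 to -0.739), like chromosome 4. The part of local tags in the fold ratios was not tested.

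Within chromosome 4 the window ratio changed along its length. From 0 to 10 Mb it was -1.91 (-2.14 to -1.71, 33 pairs), with 46 VCaP and 116 LNCaP peaks, and the LNCaP fold was 1.23 times the VCaP fold. From 30 to 60 Mb it was -0.91 (44 pairs), with 72 and 149 peaks and a fold ratio of 1.61. From 60 to 75 Mb it was 0.14 (-0.23 to 1.38, 10 pairs), with 29 and 43 peaks and a fold ratio of 1.48. From 75 to 85 Mb it was -0.54 (33 pairs), with 44 and 73 peaks and a fold ratio of 1.68. From 85 to 150 Mb it was -0.87 (62 pairs), with 89 and 259 peaks and 1.56, and from 150 Mb to the end -0.70 (54 pairs), with 83 and 166 peaks and 1.51. The fold ratio was lowest from 0 to 10 Mb (interval of the median 1.04 to 1.33). This interval overlapped those from 60 to 75 Mb (1.31 to 2.11) and, narrowly, from 150 Mb to the end (1.326 to 1.63). Taken from 0 to 30 Mb, the fold ratio was 1.34 (1.23 to 1.48), so this stretch is not set apart. The intervals of the other stretches given overlapped one another, so no order is read among them. The LNCaP to VCaP ratio of peak numbers was 2.52 from 0 to 10 Mb, 2.07 from 30 to 60 Mb and 1.48 from 60 to 75 Mb. It was 1.66 from 75 to 85 Mb, 2.91 from 85 to 150 Mb and 2 from 150 Mb to the end. Across the 37 bins of chromosome 4 with a VCaP peak and a pair, Spearman's rho between the ratio of peak numbers and the window ratio was -0.51, and over the 16 bins of chromosome 18 it was -0.47. Over 499 bins elsewhere it was -0.41. On chromosome 18 the stretches from 0 to 15 Mb and from 20 to 80 Mb had window ratios of -1.29 and -1.38, with peak ratios of 2.43 and 3.57. The limits of these stretches were set after the bin values had been seen, and 10 to 30 Mb of chromosome 4 was not taken as a stretch of its own.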

How the data were processed

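Peaks were called by the authors with MACS 2.1.0.20140616 on each library alone, without a control, per the file headers, using a q-value limit of 0.05 and 1 tag kept per position. Per the submitters' processing notes, the build is hg19 and MACS2 and HOMER were used. The aligner is not given in the sources used here. The deposited pileup is a coverage signal in tags, the deposited fold enrichment is a ratio to the local background, and significance was deposited as −log10 of p and as −log10 of q, per the file headers. Background tags were computed back as (pileup + 1) / fold − 1 and scaled to 10 kb. They were whole within 0.05 tags for 100% of peaks above the genome mean.

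Chromosomes were compared as descriptions, with exact 95% Clopper-Pearson intervals (SciPy 1.17.1) and order-statistic intervals of medians. No test was possible with 1 library per line. Functions were tested on simulated data. Bins were assigned by summit, and where several peaks overlapped, the partner of highest fold was taken. Named peaks were, per chromosome and list, the 5 of highest fold, the 3 highest unshared, the highest pileup and the longest, with the 3 best-ranked pairs, the fullest bin, the longest run and the 2 widest gaps. Members and lists were chosen with earlier results of these data known. An hg19 annotation or sequence was not used here, so the planned look at gene starts and motifs was not made.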

Additional observations from a re-analysis of the deposited data

How the results depend on the processing

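With 1 library per line, no replicate could be left out. No paired analysis was possible because no result comes from a test and each line has 1 sample. The values below are for chromosomes 4 and 18 together, first VCaP and then LNCaP. The density relative to the other autosomes, 0.592 and 0.629, was 0.539 in VCaP with −log10 q of at least 5, 0.260 and 0.735 with fold enrichment of at least 10, and 0.663 and 0.681 without the 3 densest other autosomes. It stayed below 1 in every setting tried. In bins of 10 Mb, 96.4% of LNCaP bins lay below the mean of the other autosomes, against 89.1% in bins of 5 Mb. The share of peaks with a neighbour, 18.6% and 36.1% within 20 kb, was 13.9% and 25.7% within 10 kb, against 15.2% and 28.9% elsewhere, and 54.4% and 77.9% within 100 kb, against 70.0% and 87.3%. With −log10 q of at least 5 it was 15.99% (11.8 to 20.9) and 23.7%, against 20.8% and 33.6%. The VCaP interval at 10 kb (11.1 to 17.1) and with that q limit includes the value elsewhere. With that limit the median pileup was 17 and 16 tags, the median length 351 and 510.5 bp and the median fold 6.18 and 7.06. Among overlapping peaks the medians were 14 and 21 tags and 333 and 652 bp, and the LNCaP fold was 8.27. The overlapped share, 66.6% and 26.4%, was 32.6% and 13.3% with reciprocal overlap of at least 50%, 52.3% and 21.2% with summits within 200 bp, 72.5% and 22.3% with −log10 q of at least 5 in both lists, and 56.5% and 47.9% with lists of equal length. The other autosomes had 43.5% and 18.8%, 59.4% and 25.7%, 76.2% and 27.5%, and 52.0% and 51.5% in the same order. Lists of equal length thus turned the comparison for VCaP, though narrowly (52.1 to 60.7). The LNCaP interval with equal lists (43.8 to 51.9) included the value elsewhere. Both of the following were chosen after seeing the data: leaving out peaks near peak-free intervals, or peaks whose window held over 5 times the median tags, gave 15.4% and 16.5% of VCaP peaks with a neighbour within 20 kb. The lowest pileups on these chromosomes were 7 tags in VCaP and 4 in LNCaP, so low peaks rest on few tags.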

Other observations

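LNCaP peaks over a thin background were more frequent on chromosome 4 than elsewhere. The genome mean, 13.2 tags per 10 kb in LNCaP, served as the background of 102 of 865 LNCaP peaks on chromosome 4 (11.8%, exact interval 9.72 to 14.1) and 33 of 444 on chromosome 18 (7.43%, 5.17 to 10.3), against 5.69% on the other autosomes (5.37 to 6.02). The interval of chromosome 18 includes the value elsewhere. These peaks had a median pileup of 6 tags on chromosome 4 and 7 on chromosome 18 and a median length of 241 bp, the shortest that the list holds. Of the 135, 1 was overlapped by a VCaP peak, and of the 1148 elsewhere 17. In VCaP, where the genome mean is 31.2 tags per 10 kb, 3 of 391 peaks on chromosome 4 (0.767%, 0.159 to 2.23) and 7 of 142 on chromosome 18 (4.93%, 2.005 to 9.89) were called over it, against 143 of 8735 elsewhere (1.64%). Of the 10, 0 had an LNCaP partner, while 79 of the 143 elsewhere had one. A run of 4 LNCaP peaks at chr4:102049760-102083450, with pileups of 6 and 7, at most 20 tags in the window and no VCaP peak, is an example chosen after its values were seen.

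Windows with over 5 times the median tags of their list were found around 7 of 391 VCaP peaks on chromosome 4 (1.79%, 0.723 to 3.65) and 6 of 142 on chromosome 18 (4.23%, 1.57 to 8.97), against 0.859% on the other autosomes (0.676 to 1.08). The interval of chromosome 4 includes the value elsewhere, and chromosome 13 had 3.26%. Windows of neighbouring peaks overlap, as in the VCaP run of 4 peaks within 7.4 kb on chromosome 18, so peaks are not separate places. In LNCaP they were found around 1 of 865 and 0 of 444, against 0.188%.

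The start of chromosome 4 held a second dense LNCaP group besides the one near the peak-free interval: 6 peaks at chr4:10152-68059, with pileups of 6 to 50 tags and folds of 5.14 to 8.06. One of the 6 was overlapped in VCaP, which had 2 summits in the interval.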
